A study of Mus musculus with 33 samples.

Results

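The transcripts of tau and of 7 other proteins that bind or regulate microtubules were followed in the CA1 region of the mouse hippocampus after treatment with JQ1, an inhibitor that keeps BET proteins, readers of acetylated histones, off chromatin. The 8 genes were Mapt, which encodes tau, Map2, Map4, Map1a, Map1b, Map1s, Map6 and Stmn2. They were picked out by gene name, with earlier results of these data known. They are 8 of the 38355 genes listed in the aged animals, where they were found through their Ensembl identifiers. In the young animals they correspond to 9 of 40678 listed loci, because Map6 has 2 listed loci there. Both carry the same coordinates, chr7:99267447-99337137, so reads of Map6 may be divided between them.

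In the aged experiment the animals were 8 to 10 months old. JQ1-treated APP animals (n = 6) received 50 mg per kg intraperitoneally for 10 days, and vehicle-treated APP animals (n = 6) and vehicle-treated WT animals (n = 4 with values of 5 labelled) received the carrier with 10% DMSO for 10 days. In the young experiment, WT animals of the strain C57B/6JRj, aged 3 months, received JQ1 at 50 mg per kg (n = 8) or vehicle (n = 8) for 13 days. Each n counts libraries, and the labels do not state that each library is a separate animal. APP animals belong to a transgenic line on a C57B/6 background that carries mutant human APP under Thy1 promoter sequences, which act mainly in neurons. Mapt was not a transgene of this line. The strain label of the aged WT animals also names this line, although their titles call them WT, and they were grouped by title. No JQ1-treated aged WT animals were analysed here, and WT replicate 2 was not analysed here. Tissue was taken the day after a final memory test.

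Microtubules are hollow polymers of tubulin that form the tracks of axons and dendrites. Tau, MAP2 and MAP4 share related microtubule-binding repeats. Tau is most abundant in axons, where it is known for its aggregation in Alzheimer's disease, MAP2 is the classical marker of dendrites, and MAP4 is also made outside neurons. MAP1A, MAP1B and MAP1S form a second family whose members are cleaved into a heavy and a light chain. MAP6 protects microtubules against disassembly in the cold, and stathmin 2, the product of Stmn2, binds tubulin and promotes disassembly, with a known role in axon growth.

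On the mm10 build, Mapt (ENSMUSG00000018411) lies at chr11:104231390-104332090, Map2 (ENSMUSG00000015222) at chr1:66175273-66442583, Map4 (ENSMUSG00000032479) at chr9:109931460-110083955 and Map6 (ENSMUSG00000055407) at chr7:99267447-99337137, each on the plus strand. Map1a (ENSMUSG00000027254) lies at chr2:121289600-121310832 on the plus strand, Map1b (ENSMUSG00000052727) at chr13:99421446-99516540 on the minus strand and Map1s (ENSMUSG00000019261) at chr8:70905932-70917529 on the plus strand. Stmn2 (ENSMUSG00000027500) lies at chr3:8509360-8561606 on the plus strand. The exons of Map2 share 124 bases with the antisense gene Gm10558, and those of Map1a share 272 bases with Ppip5k1 on the other strand. Whether the counting used strand is not given in the sources used here, so reads in those stretches cannot be assigned to either gene with certainty.

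The genes differ in base composition. In the longest annotated transcript the share of G and C was 41.31% for Stmn2, 47.56% for Map1b, 47.84% for Map2, 52.52% for Mapt, 53.13% for Map4, 54.85% for Map1a, 56.02% for Map6 and 62.14% for Map1s. For Map1s that longest transcript retains introns, and its longest protein-coding transcript, of 3314 bases, held 64.09%. The contrast between the extreme pair of the JQ1 comparison, Map1s and Map2, is visible in coding stretches of 120 bases, chosen because their composition is the nearest to that of the whole protein-coding transcript. The Map1s stretch lies at chr8:70913039-70913158 in exon 5 of 7, and the Map2 stretch at chr1:66412535-66412654 in exon 7 of 15, both on the plus strand in GENCODE annotation of mm10. They are written 5′ to 3′ with G and C in capitals, which make up 64.2% of the first and 47.5% of the second.
Map1s: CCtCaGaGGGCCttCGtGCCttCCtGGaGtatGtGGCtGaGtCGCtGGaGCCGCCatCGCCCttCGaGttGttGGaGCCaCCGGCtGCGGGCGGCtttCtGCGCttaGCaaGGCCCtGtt
Map2: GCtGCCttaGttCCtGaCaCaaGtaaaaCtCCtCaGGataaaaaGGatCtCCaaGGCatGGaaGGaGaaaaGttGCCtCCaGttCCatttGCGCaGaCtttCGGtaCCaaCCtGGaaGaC

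Values in aged animals are CPM, read counts scaled to library size with TMM factors, from libraries of 14605459 to 25339482 counted reads. Values in young animals are FPKM, fragments scaled to transcript length and library depth, whose depth is unknown. The 2 tables were normalized separately, and no value was compared between them. Several aged libraries stood apart. The library labelled JQ1-treated APP replicate 4 had 322 CPM of Gfap, the astrocyte filament gene, close to the 249 to 321 CPM of the 4 WT libraries and below the 1262 to 5166 CPM of the 11 other APP libraries. WT replicate 4 held 3065 CPM of Ttr, a choroid plexus gene, against 3.40 to 115 CPM in the 15 others. WT replicate 1 had the highest summed CA3 and CA2 markers, 442 CPM, with 75.3 CPM for dentate gyrus markers. The share of uniquely mapped reads outside annotated features ranged from 15.4% to 26.9%, with medians of 21.4% in JQ1-treated APP, 18.6% in vehicle-treated APP and 18.0% in WT animals. In bulk tissue, fewer cells of a type and less RNA per cell cannot be told apart.

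All 8 genes were readily detected, the shallowest value being 384 reads, for Map1s in 1 JQ1-treated library. Levels of different genes were compared only per kilobase of exon, with all annotated exons of a gene merged. In vehicle-treated APP animals Map1a was highest by this length, at 115 ± 23.8 CPM per kb (SD, n = 6). Stmn2 followed at 72.1 ± 10.6, Mapt at 65.0 ± 7.53, Map2 at 59.7 ± 8.26, Map4 at 51.3 ± 4.45 and Map1b at 46.3 ± 15.6 CPM per kb. The SDs of neighbours among these 5 genes overlapped. Map6, at 11.9 ± 0.963 CPM per kb, and Map1s, at 6.26 ± 0.688 CPM per kb, lay well below them and below each other by more than their SDs. In aged WT animals the order was the same except that Map2, at 70.4 ± 13.3, stood above Mapt, at 64.7 ± 2.21 CPM per kb, again within the spread. Map1a exceeded 98.3% of the 16770 genes with a known length in vehicle-treated APP animals, Mapt 96.4%, and Map1s 57.8%. The exonic length of Map1s, 7963 bases, includes retained introns, which lowers its level per kilobase. Merged exons also far exceed the longest transcript for Map2 (16449 against 6258 bases) and Map4 (15143 against 6091 bases). For Map1a the lengths are near each other, 12166 and 11825 bases, so the order of these genes can depend on the length chosen.

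In young vehicle-treated WT animals the order in FPKM was led by Map2, at 238 ± 14.5 (SD, n = 8), followed by Map4 at 179 ± 12.5, Stmn2 at 177 ± 14.7, Mapt at 118 ± 6.94, Map1a at 116 ± 14.0 and Map1b at 88.5 ± 7.50. The first Map6 locus had 24.0 ± 1.88 FPKM, Map1s 7.16 ± 1.19 and the second Map6 locus 1.98 ± 0.442. The pairs Map4 and Stmn2, and Mapt and Map1a, did not differ beyond their spread. Map1s and Map6 were thus the least abundant genes of the set in both experiments, each order being read within its own table. The young Map1s locus is joined with Gm10654, and the Map1a locus, chr2:121157485-121355396, is wider than the gene, so these FPKM can hold reads of neighbours.

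**Figure D1:**
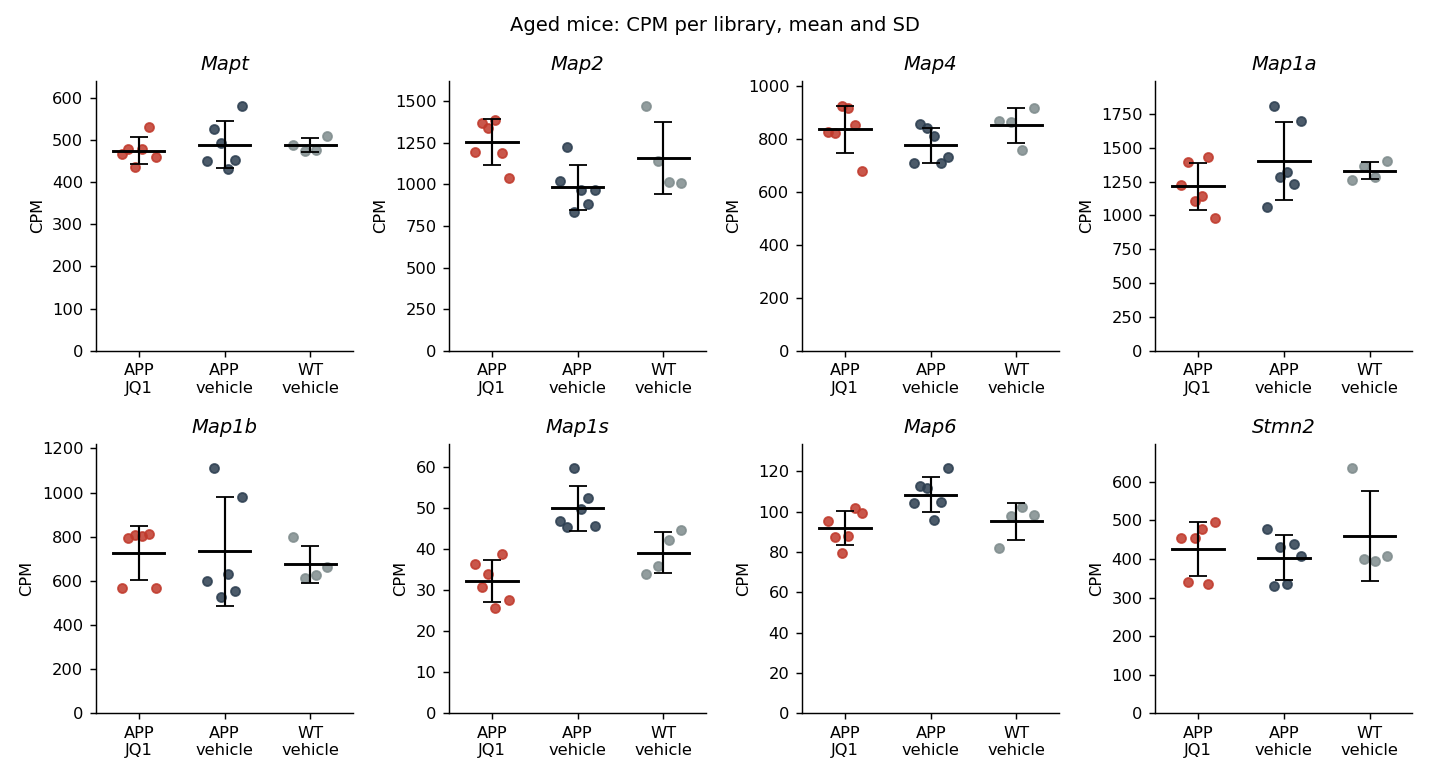
CPM of each of the 8 genes (y axes, from 0) in every aged library, by group (x axes), with group means as horizontal bars and SD as error bars. For Map1s the 6 JQ1-treated APP libraries, at most 38.8 CPM, lie below the 6 vehicle-treated APP libraries, at least 45.2 CPM, and the groups overlap for the other 7 genes in that comparison.

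Whether JQ1 altered these transcripts in animals with amyloid pathology was read from JQ1-treated against vehicle-treated APP animals. Map1s fell and was the only gene of the 8 past the threshold, an adjusted p under 0.05 in edgeR's quasi-likelihood test over all 16962 genes tested. The background in this comparison was 184 genes, or 1.08% of those tested, and 0.466% were lower. MAP1S, the short and widely expressed MAP1 family member, also links microtubules with autophagosomes. Map1s was at 25.6, 27.5, 30.8, 33.9, 36.4 and 38.8 CPM in the JQ1-treated libraries. In vehicle-treated APP libraries it was at 45.2, 45.6, 46.9, 49.7, 52.3 and 59.6 CPM. No JQ1-treated library reached the lowest vehicle-treated one, a separation that held in either direction for 2.03% of all genes. The means were 32.2 ± 5.15 and 49.9 ± 5.48 CPM (SD, each n = 6) in turn. The log2 fold change was −0.63 (SE 0.108, 95% confidence interval −0.86 to −0.41, edgeR adjusted p = 0.00681), or 0.645-fold. The exact two-sided permutation test of the group labels gave p = 0.0022, the smallest that 6 against 6 can give.

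The Map1s difference did not pass the threshold once the GC content and length of transcripts were taken into account, as fitted per library with splines. It was then −0.32 (edgeR adjusted p = 0.254), in a fit that called 42 genes, or 0.248% of all. The JQ1 comparison was graded by GC content across all genes. Of the 984 genes with 30 to 40% GC the median difference of mean log2 CPM was 0.22, and of the 720 genes with 60 to 75% GC, the class of Map1s, it was −0.29, with 91.8% of them lower in JQ1-treated animals. On that scale Map1s was at −0.64, and 7.92% of the genes in its class lay lower. The GC and length correction was fitted over all genes without a term for group. It therefore also takes out any difference between groups that follows GC content or length. Whether the gradient is technical or part of the response to JQ1 was not tested. Without the library labelled JQ1-treated APP replicate 4 the log2 fold change of Map1s was −0.57 (edgeR adjusted p = 0.0180). No marker of neurons, interneurons, astrocytes, microglia, oligodendrocytes, endothelium or choroid plexus, nor of the hippocampal subfields, was called in this comparison, and the neuron sums were 3755 to 4980 CPM with JQ1 and 3878 to 4938 CPM with vehicle.

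The other 7 genes did not pass the threshold in this comparison, and for 2 of them the unadjusted p was under 0.05. With Map1s that made 3 of 8 genes, beside 2987 of 16962 genes in all. Map2, the dendritic MAP, was at 1036 to 1389 CPM (median 1266) in JQ1-treated and 835 to 1223 CPM (median 963) in vehicle-treated APP animals. The ranges overlapped, with 3 JQ1-treated libraries above every vehicle-treated one. The log2 fold change was 0.35 (SE 0.111, 95% confidence interval 0.12 to 0.58, edgeR adjusted p = 0.116). DESeq2, which called 4.43% of all genes, gave Map2 an adjusted p of 0.0415, and without vehicle-treated APP replicate 2, the highest library of its group, edgeR gave 0.43 with an adjusted p of 0.0465. With the GC and length correction the value was 0.25 (adjusted p = 0.424). The paper's list of genes altered by JQ1 in APP animals includes both Map2 and Map1s.

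Map6 had 79.6 to 102 CPM (median 91.7) in JQ1-treated and 96.0 to 122 CPM (median 108) in vehicle-treated APP animals. The ranges overlapped in a narrow band, and the log2 fold change was −0.24 (SE 0.079, edgeR adjusted p = 0.129). With the GC and length correction it was −0.08 (adjusted p = 0.738). The transcript of Map6 belongs to a GC class, 55 to 60%, with a median difference of −0.18 over 3031 genes.

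Mapt itself was at 435 to 531 CPM (median 472) in JQ1-treated and 432 to 582 CPM (median 473) in vehicle-treated APP animals. All 6 JQ1-treated libraries lay within the range of the vehicle-treated ones. The log2 fold change of tau's transcript was −0.04 (95% confidence interval −0.21 to 0.12, edgeR adjusted p = 0.815). These counts measure Mapt transcripts in sum and hold nothing on tau isoforms or phosphorylation.

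Map4 had 679 to 926 CPM (median 842) with JQ1 and 709 to 857 CPM (median 774) with vehicle. Its log2 fold change was 0.11 (95% confidence interval −0.07 to 0.29, edgeR adjusted p = 0.529). Stmn2 had 334 to 497 CPM (median 453) with JQ1 and 330 to 478 CPM (median 420) with vehicle, a log2 fold change of 0.08 (95% confidence interval −0.21 to 0.37, edgeR adjusted p = 0.813). The ranges of both genes overlapped widely.

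Map1a had 984 to 1436 CPM (median 1188) with JQ1 and 1066 to 1813 CPM (median 1303) with vehicle, with a log2 fold change of −0.21 (95% confidence interval −0.46 to 0.05, edgeR adjusted p = 0.392). Map1b, a MAP of growing axons, had 567 to 813 CPM (median 800) with JQ1 and 529 to 1110 CPM (median 616) with vehicle. Its log2 fold change was −0.02 (95% confidence interval −0.39 to 0.36, edgeR adjusted p = 0.976). In vehicle-treated APP animals Map1b fell into 2 levels, replicates 2 and 6 at 1110 and 981 CPM and the other 4 at 529 to 633 CPM, a coefficient of variation of 33.7%. The same 2 libraries were the highest of their group for Map1a, at 1813 and 1702 CPM, and had its largest shares of reads outside features, 24.5% and 22.3%. With JQ1, Map1b also fell into 2 levels, replicates 1 and 6 at 567 CPM and the other 4 at 795 to 813 CPM. Replicates 1 and 6 had shares of reads outside features of 21.0% and 21.9%, and the other 4 had 16.9% to 26.9%. The part of that share in the levels was not tested.

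**Figure D2:**
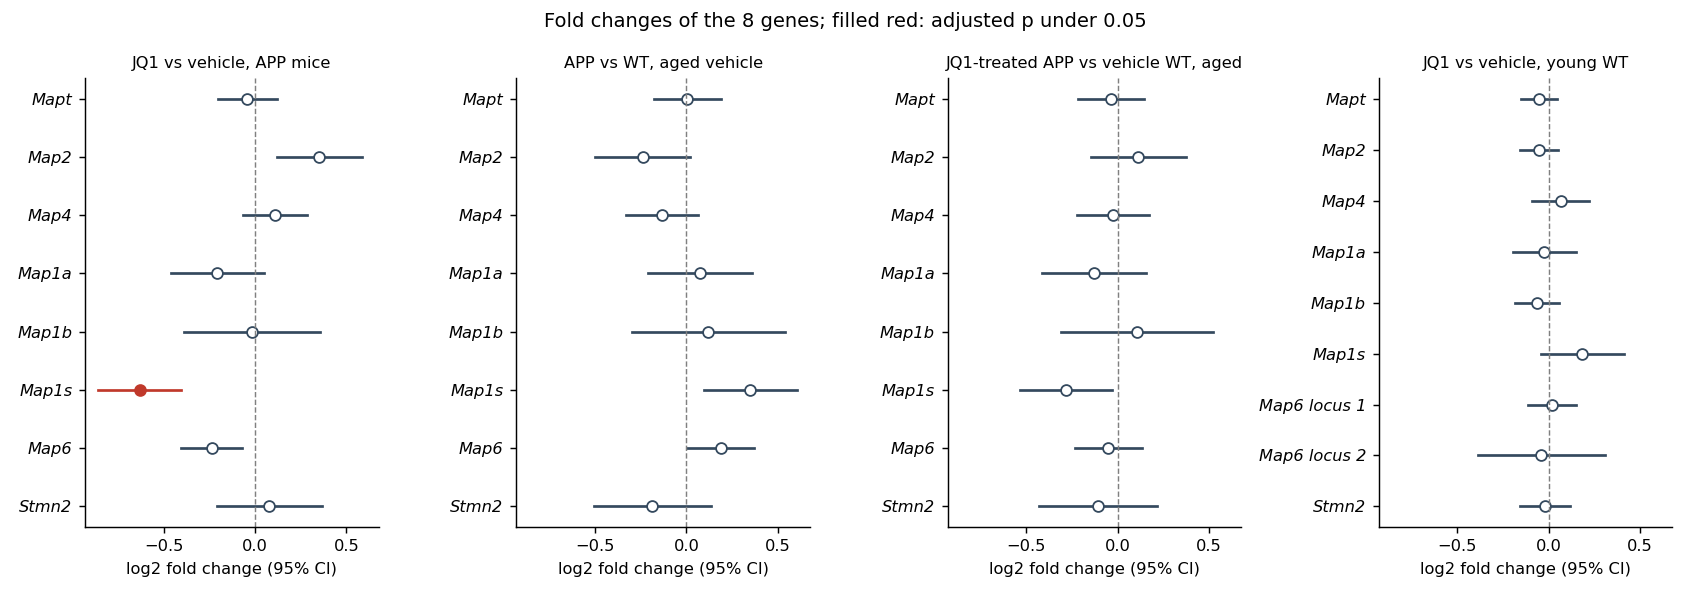
Log2 fold change of each gene (x axes) with its 95% confidence interval as a line, in 4 comparisons, from edgeR for the aged and limma for the young animals. Filled red marks an adjusted p under 0.05, which only Map1s reached, at −0.63 in JQ1-treated against vehicle-treated APP animals.

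**Figure D3:**
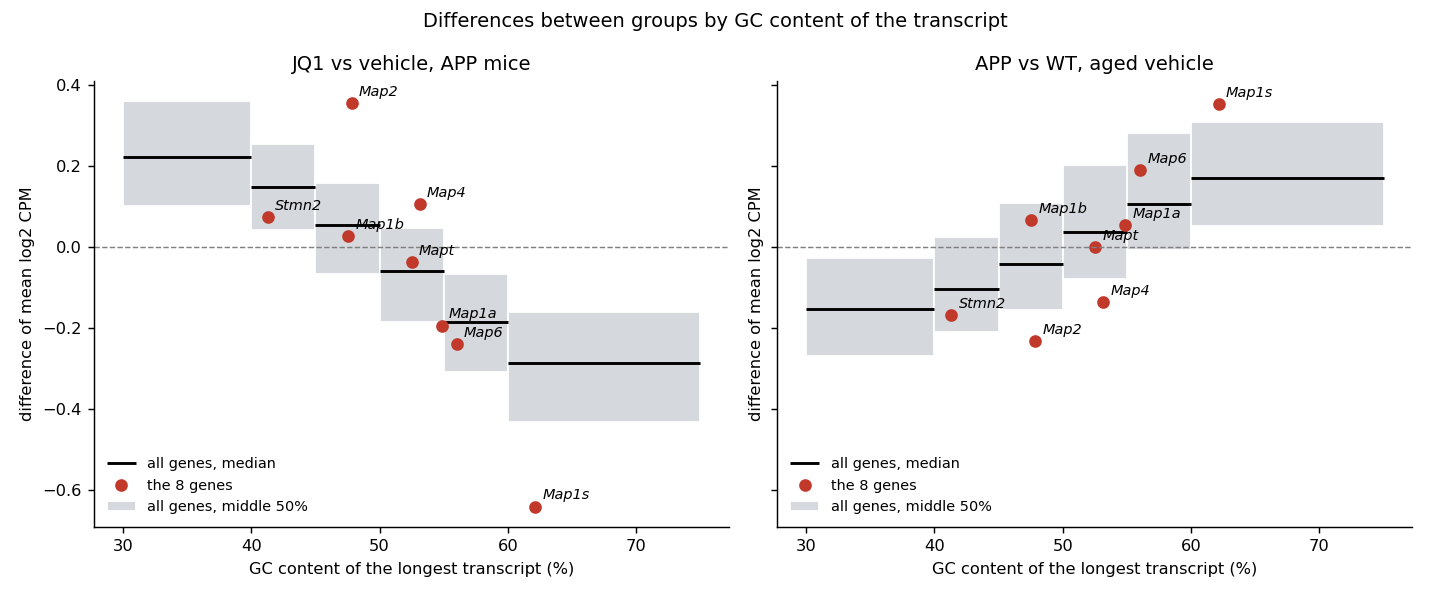
Difference of mean log2 CPM (y axis) against the GC content of the longest transcript (x axis, %), for JQ1 against vehicle in APP animals (left) and vehicle-treated APP against WT animals (right). Grey boxes span the middle 50% of all genes in a GC class, black lines their median and red points the 8 genes; the medians run from 0.22 to −0.29 on the left and from −0.15 to 0.17 on the right.

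Whether the APP genotype itself was accompanied by a difference was read from vehicle-treated APP against vehicle-treated WT animals, which use the same vehicle-treated APP libraries as above. None of the 8 genes passed the threshold in edgeR or in DESeq2, and 2 had an unadjusted p under 0.05 in edgeR, beside 2448 of all 16962 genes. The background was 436 genes, or 2.57%, in edgeR and 4.75% in DESeq2. The paper's own analysis lists Map1s among the genes that differed in this comparison at an adjusted p under 0.05. Map1s was at 33.9, 35.9, 42.0 and 44.5 CPM in the WT libraries, all below the 45.2 to 59.6 CPM of vehicle-treated APP animals. Groups that do not overlap made up 6.99% of all genes in this comparison. For Map1s the exact two-sided permutation test gave p = 0.0095, unadjusted, the smallest that 6 against 4 can give. The log2 fold change of Map1s was 0.35 (SE 0.120, 95% confidence interval 0.10 to 0.60, edgeR adjusted p = 0.164), and 0.15 with the GC and length correction (adjusted p = 0.465). Without WT replicate 1, the lowest WT library for Map1s, the log2 fold change was 0.28 (edgeR adjusted p = 0.478). Genes of 60 to 75% GC had a median difference of 0.17 here, the opposite sign to the JQ1 comparison.

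Map6 was at 82.0, 97.9, 98.6 and 102 CPM in WT animals, with a log2 fold change of 0.19 in APP animals (edgeR adjusted p = 0.333). That of Map6 was 0.11 without WT replicate 1, its lowest WT library. Map2 was at 1474 CPM in WT replicate 1 and at 1142, 1012 and 1006 CPM in the other WT libraries. Its log2 fold change in APP animals was −0.24 (95% confidence interval −0.50 to 0.02, edgeR adjusted p = 0.386), and −0.11 without WT replicate 1. Stmn2 behaved alike, with 635 CPM in WT replicate 1 and 396 to 408 CPM in the other 3. Its log2 fold change of −0.19 (edgeR adjusted p = 0.616) became −0.00062 without that library. WT replicate 1 also had the highest sum of the neuron markers, 6049 CPM, and its part in these values was not tested beyond leaving it out.

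Mapt in WT animals was at 473, 477, 489 and 510 CPM, inside the range of vehicle-treated APP animals, and its log2 fold change was 0.01 (95% confidence interval −0.17 to 0.19, edgeR adjusted p = 0.983), a value whose sign changed in 15 of 25 alternative fits. Map4 was at 761, 866, 869 and 919 CPM in WT animals (log2 fold change −0.13, edgeR adjusted p = 0.545). Map1a was at 1266, 1288, 1368 and 1400 CPM (log2 fold change 0.08, edgeR adjusted p = 0.843), and Map1b at 612, 627, 663 and 797 CPM (log2 fold change 0.12, edgeR adjusted p = 0.829). All 3 overlapped with the APP animals. The glial markers did differ beside these values. The summed astrocyte markers were 1214 to 1302 CPM in WT and 2258 to 6326 CPM in vehicle-treated APP animals, and 1 of 5 astrocyte markers (Gfap) and 3 of 6 microglia markers (Csf1r, Itgam and Cx3cr1) rose in edgeR. Their part in the values of the 8 genes was not tested. The 5 tested markers of neurons had no call, with a median log2 fold change of −0.28.

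JQ1-treated APP animals were also set against vehicle-treated WT animals, a comparison that shares libraries with both others and combines genotype and treatment. None of the 8 genes passed the threshold in edgeR or in DESeq2, with 1 unadjusted p under 0.05, beside 2391 of all 16962 genes, and a background of 349 genes, or 2.06%, in edgeR and 4.68% in DESeq2. Map1s had a log2 fold change of −0.28 (95% confidence interval −0.53 to −0.03, edgeR adjusted p = 0.283), and 2 of the 6 JQ1-treated libraries lay in the WT range. The log2 fold change was −0.13 for Map1a, −0.11 for Stmn2, −0.05 for Map6, −0.04 for Mapt, −0.03 for Map4, 0.10 for Map1b and 0.11 for Map2, with edgeR adjusted p from 0.747 to 0.940. In this comparison 3 of 5 astrocyte markers (Gfap, Slc1a3 and Aqp4) and 2 of 6 microglia markers (Csf1r and Cx3cr1) rose, and 1 of 4 interneuron markers (Sst) fell in edgeR. Their part in the values of the 8 genes was not tested.

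**Figure D4:**
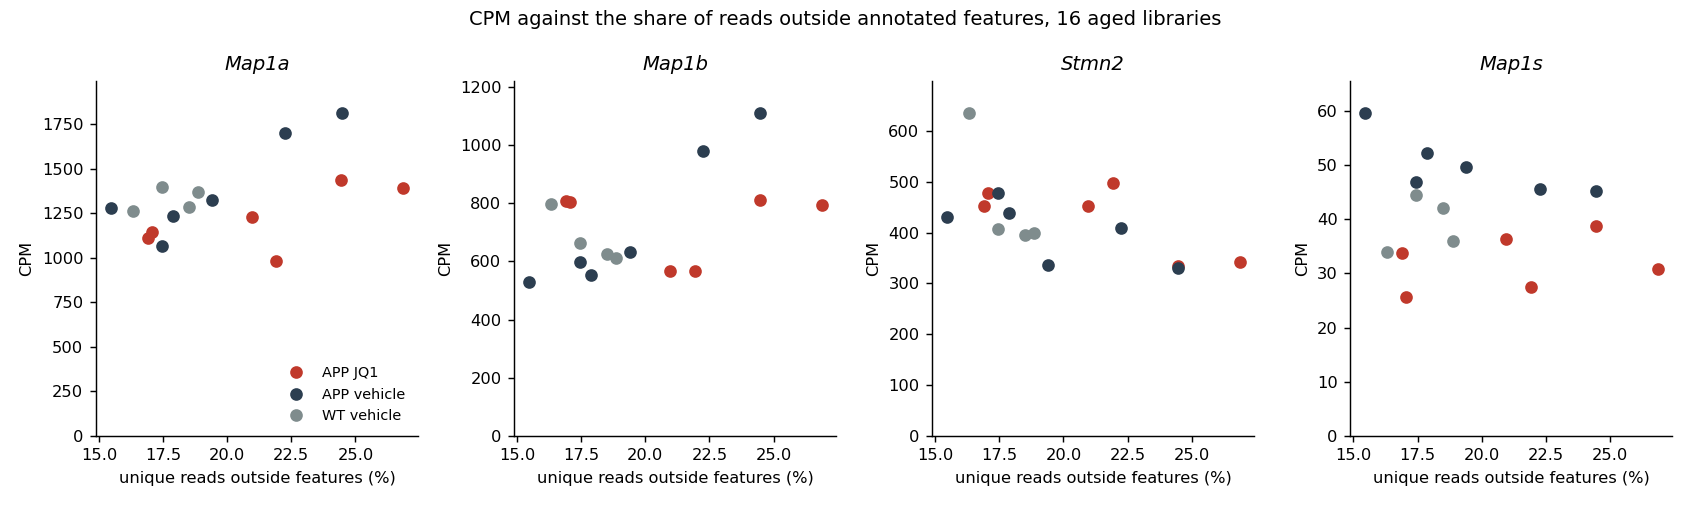
CPM of Map1a, Map1b, Stmn2 and Map1s (y axes, from 0) against the share of uniquely mapped reads outside annotated features (x axes, %) in the 16 aged libraries, coloured by group. Within vehicle-treated APP animals the libraries at 22.3% and 24.5% are the highest for Map1a and Map1b, and over all 16 libraries Stmn2 is lower where the share is higher.

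The share of reads outside features was related to the 8 genes over the 16 aged libraries, a family of 8 relations examined after the values had been seen. None had an adjusted permutation p under 0.05. Stmn2 came nearest, with Pearson's r = −0.62 (permutation p = 0.00706, adjusted p = 0.0565) and Spearman's rho = −0.59 (permutation p = 0.0175, adjusted p = 0.140). Without the 2 libraries farthest from the median share r was −0.46. Within groups r was −0.78 in JQ1-treated (exact permutation p = 0.108, n = 6) and −0.68 in vehicle-treated APP animals (exact permutation p = 0.150, n = 6). For Map1b r was 0.97 within vehicle-treated APP animals (exact permutation p = 0.00556, n = 6) and −0.03 within JQ1-treated APP animals (exact permutation p = 0.986, n = 6), and 0.47 over all 16 (permutation p = 0.0787, adjusted p = 0.210). For Map1a r was 0.87 within vehicle-treated APP animals (exact permutation p = 0.0444, n = 6), 0.63 within JQ1-treated APP animals (exact permutation p = 0.181, n = 6) and 0.48 over all 16 (permutation p = 0.0658, adjusted p = 0.210). Map1s, the called gene, was lower where the share was higher within vehicle-treated APP animals, with r = −0.80 (exact permutation p = 0.0278, n = 6). Within JQ1-treated APP animals r was 0.30 for Map1s (exact permutation p = 0.522, n = 6), and over all 16 it was −0.22 (permutation p = 0.406, adjusted p = 0.506). The p-values within groups were not adjusted. With that share as a covariate Map1s stayed past the threshold in JQ1-treated against vehicle-treated APP animals, at −0.62 (edgeR adjusted p = 0.00979), in a fit that called 3.05% of all genes.

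The 8 genes did not vary as a block among the aged libraries. Over 16 libraries, which share the group differences and the GC gradient, Pearson's r of log2 CPM was 0.75 for Mapt with Map1a, 0.64 for Map1a with Map1b, 0.60 for Mapt with Map1b and 0.65 for Map1s with Map6. It was −0.76 for Map2 with Map1s, −0.73 for Map2 with Map6 and −0.61 for Map1a with Stmn2. Mapt with Map2 stood at −0.02. By the same measure the pair of genes most like each member, of all genes tested, was Mtor (0.88) and Adar (0.84) for Mapt, Uhrf1bp1l (0.94) and Dmxl2 (0.93) for Map2, and Kcns2 (0.90) and Gria1 (0.88) for Map4. For Map1a it was Bicral and Setd1b (0.95 each), for Map1b Abl2 (0.96) and Emc1 (0.95), and for Map1s Mus81 (0.98) and Gm26901 (0.96). For Map6 it was Kansl3 (0.93) and Mnt (0.92), and for Stmn2 Uqcrb (0.93) and Nme1 (0.91).

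In young WT animals, which carry no transgene, JQ1 was compared with vehicle to ask whether the drug altered these transcripts without amyloid pathology. None of the 9 loci passed the threshold in limma, and none had an unadjusted p under 0.05, beside 857 of all 18420 loci. The background of calls was 1 of 18420 loci, or 0.00543%. For each of the 9 loci the ranges of the groups overlapped, and 0.0271% of all loci had groups that did not. Mapt had 99.1 to 125 FPKM (median 115) with JQ1 and 109 to 129 FPKM (median 117) with vehicle. Its log2 fold change, on the scale of log2(FPKM + 0.1), was −0.05 (95% confidence interval −0.15 to 0.05, limma adjusted p = 0.981).

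Map1s, the gene that fell in APP animals, had 6.11 to 10.2 FPKM (median 7.66) with JQ1 and 5.68 to 9.44 FPKM (median 6.86) with vehicle in young animals. Its log2 fold change was 0.18 (SE 0.108, 95% confidence interval −0.04 to 0.41, limma adjusted p = 0.981). The difference between the responses of APP and young WT animals was not tested, since the tables hold different units and the animals differ in age, genotype and number of injections. By the paper's methods sex differs too, with males for the young WT animals and females for behavioural tests of the APP line. Map2 had 209 to 257 FPKM (median 225) with JQ1 and 220 to 267 FPKM (median 236) with vehicle, a log2 fold change of −0.05 (95% confidence interval −0.16 to 0.05, limma adjusted p = 0.981). The intervals of Mapt and Map2 are narrower here than in the aged animals.

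Among the others, Map4 had 147 to 232 FPKM with JQ1 and 163 to 201 FPKM with vehicle (log2 fold change 0.07). Map1a had 95.03 to 133 and 104 to 136 FPKM (log2 fold change −0.02), and Map1b 75.2 to 95.1 and 78.3 to 96.3 FPKM (log2 fold change −0.07). The Map6 loci changed by 0.02 and −0.04 on the log2 scale, from 20.5 to 27.8 and 1.24 to 3.16 FPKM with JQ1, and Stmn2, with 152 to 205 and 153 to 196 FPKM, by −0.02. The limma adjusted p of these 6 loci was 0.981 or more. No cell type marker was called in limma. The summed neuron markers were 1436 to 1642 FPKM with JQ1 and 1446 to 1678 FPKM with vehicle. The CA1 pyramidal markers were 220.1 to 302 FPKM (median 235) with JQ1 and 199 to 246 FPKM (median 214) with vehicle, and the oligodendrocyte markers had medians of 2465 and 2665 FPKM in turn.

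**Figure D5:**
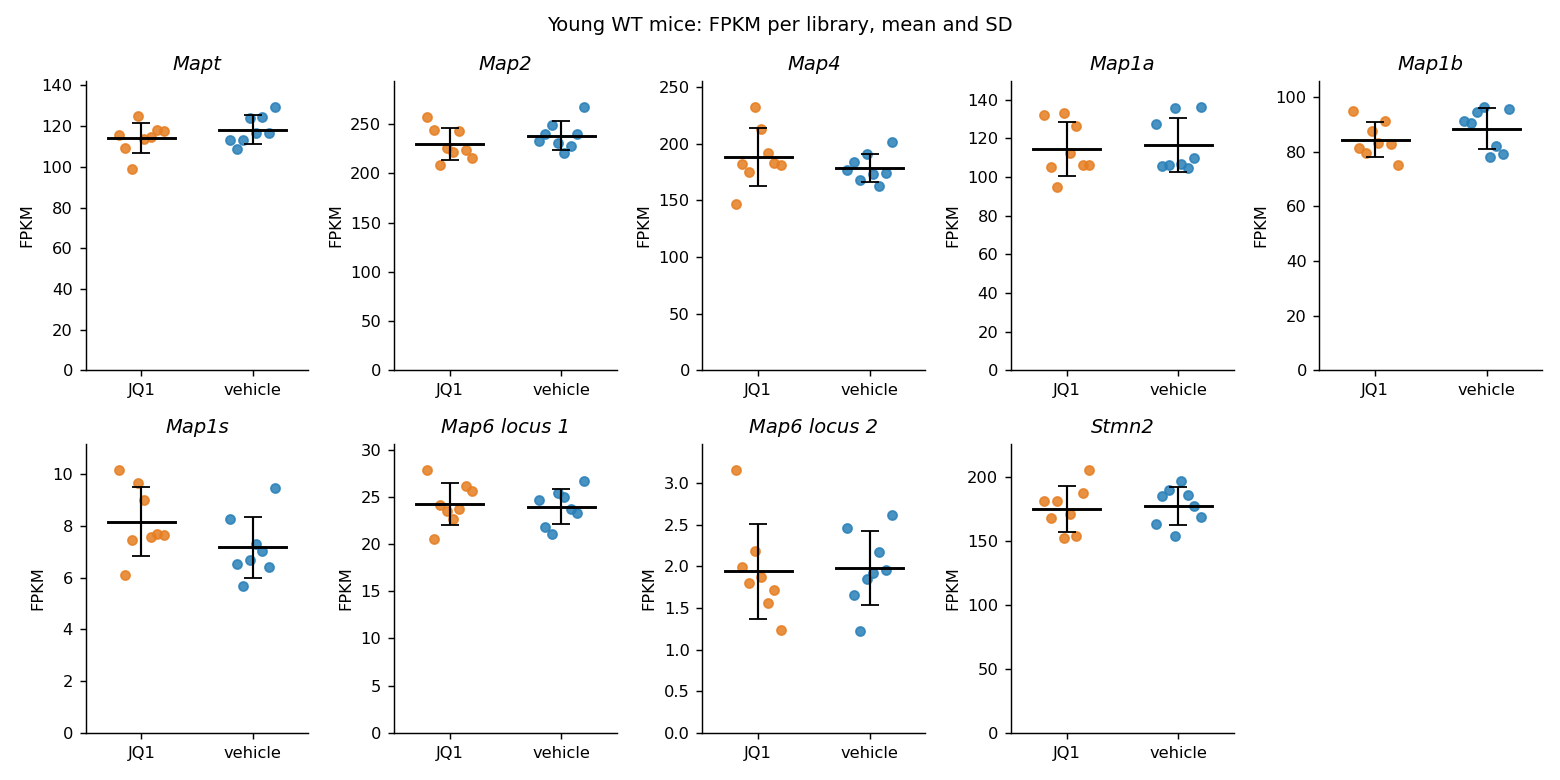
FPKM of the 9 loci of the 8 genes (y axes, from 0) in each young WT library by treatment (x axes), with group means as horizontal bars and SD as error bars. The groups overlap at every locus, including Map1s, with 6.11 to 10.2 FPKM with JQ1 and 5.68 to 9.44 FPKM with vehicle.

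A wider list of 123 other microtubule genes, 122 of them tested in aged animals, was read beside the set. In JQ1-treated against vehicle-treated APP animals 1 of 122 fell and none rose in edgeR, against 1.08% of all genes called, and 32 of 122 had an unadjusted p under 0.05, beside 2987 of all 16962 genes. The gene was Tpgs1, a subunit of the tubulin polyglutamylase complex, at 12.2 to 15.9 CPM (median 14.2) with JQ1 and 15.2 to 27.4 CPM (median 20.002) with vehicle. The ranges overlapped slightly, and the log2 fold change was −0.54 (SE 0.127, edgeR adjusted p = 0.0459). Of 16 fits that each left out 1 library, any gene of the list was called only without JQ1-treated APP replicate 1 or 5, vehicle-treated APP replicate 2 or WT replicate 1, and none was called with the GC and length correction. DESeq2 called 8 of the 122 genes, 3 higher and 5 lower, beside 751 of all 16962 genes, or 4.43%.

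By group, 12 of 14 tubulin genes had negative values in that comparison, with a median log2 fold change of −0.16 against −0.001 over all genes, and none was called. That comparison was graded by GC content, and the tubulins were not set against genes of like GC content. Tubulins are the subunits of the polymer itself, and closely related copies such as these can share reads. Of 16 other MAPs, doublecortins and stathmins 10 were positive (median 0.04), of 13 proteins binding plus or minus ends 7 were positive (median 0.01), and of 24 tau kinases and phosphatases 15 were negative (median −0.06). Of 28 severing and tubulin-modifying enzymes 14 were negative (median 0.00024), and of 27 kinesin and dynein motors 15 were negative (median −0.01). Tpgs1 belongs to the enzymes, and no other gene of these groups was called.

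In vehicle-treated APP against WT animals none of the 122 genes was called in edgeR, 15 had an unadjusted p under 0.05 (2448 of all 16962 genes), DESeq2 called 1 (4.75% of all genes), and the median was −0.03 against 0.01 over all genes. In JQ1-treated APP against WT animals none was called in edgeR, 17 had an unadjusted p under 0.05 (2391 of all 16962 genes), and DESeq2 called 1 (4.68% of all genes). There 84 of the 122 genes were negative, with a median log2 fold change of −0.06, beside 8456 of 16962 genes in all. Of the tubulins 10 of 14 were negative (median −0.16), and of the tau kinases and phosphatases 20 of 24 (median −0.10). In young animals none of 117 loci was called in limma, 2 had an unadjusted p under 0.05 (857 of all 18420 loci), and the median was 0.02.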

How the data were processed

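CA1 was microdissected, and RNA was sequenced on a HiSeq2000. Of 33 labelled samples, 32 were analysed here. For the aged animals the authors mapped reads with STAR (mm10, up to 2 mismatches) and deposited HTSeq counts per gene without normalization. For the young animals the authors deposited FPKM from cufflinks and cuffdiff, normalized to transcript length and library depth. Per the labels, base calling used CASAVA 1.8.2, and TopHat is also listed. Summary rows of the count tables, 40.6% to 52.9% of each total, were left out of library sizes and tests.

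Counts were TMM-scaled, filtered with filterByExpr and tested in 1 fit of the 3 aged groups with the quasi-likelihood test of edgeR 4.0.16 (R 4.3.3). Log2(FPKM + 0.1) was tested with limma 3.58.1 (trend, robust) for loci of at least 0.5 FPKM in at least 8 libraries. P-values were adjusted with Benjamini-Hochberg over all genes or loci, with a threshold of 0.05. Single genes were tested with exact permutation tests. Exonic length and GC content came from GENCODE M21, and 98.9% of genes tested had both. DESeq2 1.42.0, other filters and scalings, a replicate block, a GC and length correction and leave-one-out fits were the alternatives, and the covariate of reads outside features was chosen after the values had been seen. Python 3.11.15 with scipy 1.17.1 was used for levels and permutations.

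Members and gene lists were chosen with earlier results of these data known. All 8 members are named in every comparison, with up to 5 genes of each sign of the microtubule list past the threshold, and the 2 genes most correlated with each member. The labels do not state that each library is a separate animal, so p-values measure the spread between libraries, which may be technical. The fits were run on simulated data with independently drawn genes, and no conclusion about the 8 genes is drawn from that run. The full genotype of the APP line is not reported here.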

Additional observations from a re-analysis of the deposited data

Results flagged for a closer look

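Stmn2 in aged WT replicate 1 was at 635 CPM, and the next highest of the 4 WT libraries was at 408 CPM, so that this gap made up 0.95 of the range of the group. It was flagged because the sample lies far from the others by Dixon's criterion, which was applied to 42 sets of a gene in a group and met in 1. Chance alone flags about 1 in 20 such sets.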

How the results depend on the processing

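Map1s in JQ1-treated against vehicle-treated APP animals was called in 23 of 25 alternative fits, including all 16 that left out 1 library (log2 fold changes −0.69 to −0.57). With the GC and length correction, alone or with the replicate block, 0 of the 8 genes were called, and Map1s was at −0.32 and −0.31 (edgeR adjusted p = 0.254 and 0.247). DESeq2 called 2 genes (Map1s and Map2), and leaving out single libraries gave 1 to 2. In the other comparisons no alternative called any of the 8 genes, and no called value changed sign. The causes were not tested.

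Counts of all genes moved more. In JQ1-treated against vehicle-treated APP animals the 184 genes became 751 with DESeq2, 42 with the GC and length correction, 517 with the share of reads outside features as a covariate (chosen after seeing the data), and 65 (without JQ1-treated APP replicate 2) to 446 (without WT replicate 1) without single libraries. In vehicle-treated APP against WT animals the 436 genes became 806 with DESeq2, 679 with only both groups fitted, and 154 (without WT replicate 1) to 601 (without JQ1-treated APP replicate 4). In JQ1-treated APP against WT animals the 349 genes became 793, 227, 112 with the covariate, and 11 (without WT replicate 5) to 651 (without JQ1-treated APP replicate 4). In young animals the 1 locus became 0 without the filter and 0 to 2 without single libraries. Of the microtubule list in JQ1-treated against vehicle-treated APP animals, DESeq2 called 8, the covariate fit 6, the filter of at least 10 counts 2, the fits with no filter, with only both groups, with the replicate block and with the GC correction 0 each, and leave-one-out fits 0 to 5. In vehicle-treated APP against WT animals DESeq2 called 1, the GC correction 3, the fit of both groups 1 and leave-one-out fits 0 to 1, and in JQ1-treated APP against WT animals DESeq2 called 1 and leave-one-out fits 0 to 1. The share of all genes called is not given for the GC correction with 3 genes or the filter with 2. Neither count was read as a result about the list.

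Whether replicate numbers pair the libraries was not settled. Deviations of same-numbered libraries of the APP groups correlated above 0.1 in 3 of 6 pairs (mean r 0.12). Differently numbered ones did so in 9 of 30 pairs (mean r −0.02). With aged WT libraries the same-numbered means were −0.22 for JQ1-treated and −0.05 for vehicle-treated APP libraries. In the young groups it was 1 of 8 same-numbered pairs (mean r 0.03), beside 0 of 56 differently numbered pairs (mean r −0.0037). With the replicate block, the counts of all genes in the order above were 87, 35, 21 and 0, and with the block and GC correction 33, 29 and 36 in the aged comparisons. Under the block alone Map1s stayed past the threshold, at −0.64 (edgeR adjusted p = 0.0196). The FPKM of young animals give no depth, so no counting error can be set on them.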
